A study of Mus musculus with 48 samples.

Results

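The hippocampal neuropeptide genes Npy, Sst, Cck, Vip, Penk, Pdyn, Tac1, Tac2, Trh and Cort were followed through the mouse dentate gyrus after an injection of kainate into 1 hippocampus. They were taken by symbol, with no threshold on a measured value, 10 of the 55357 genes of the count table, and all 10 passed the filter on low counts that left 21390 genes to test. The list was chosen with earlier results of these data known, so its counts of calls beside the shares of all genes are descriptive. Their levels moved far and in opposite directions on the injected side: Penk and Trh were upregulated by more than an order of magnitude 3 and 7 days after status epilepticus (SE) induction, while Sst, Cck, Tac1 and Cort were downregulated at both days. At day 14 Trh alone was still called, on the reads of 1 mouse.

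PolyA RNA of the dorsal dentate gyrus was measured in 24 wild-type C57BL/6J mice. Each mouse received kainate or saline in 1 hippocampus and was killed 3, 7 or 14 days later. The injected side is called the epileptogenic zone (EZ) and the opposite side the peri-ictal zone (PIZ). Both sides of a mouse were sequenced as separate libraries, so that the 48 libraries form 12 groups of 4 by region, treatment and day, each from 4 separate mice, by design 2 male and 2 female. The mice were 6 to 8 weeks old by the series record. The study's methods give an older range. Every kainate mouse had shown a behavioural seizure after injection, saline mice had received the same kind of injection without kainate, and the PIZ of a kainate mouse lies in the same animal as its injected side. Library totals lay between 17762656 and 25712975 counts, and levels are given as CPM, the reads of a gene relative to the library total, scaled by the trimmed mean of M values (TMM). A differentially expressed gene (DEG) is one that changed by more than 1.5-fold and had an adjusted p below 0.01 in edgeR's quasi-likelihood test.

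Neuropeptides are cut from larger precursor proteins, stored in dense-core vesicles and released during strong firing, and they act on G protein-coupled receptors of nearby cells. In the dentate gyrus, somatostatin, cortistatin, cholecystokinin, vasoactive intestinal peptide, tachykinins and neuropeptide Y are known from GABAergic interneurons, whereas enkephalin and dynorphin are known from granule cells, the principal neurons, whose mossy fibres carry them. Seizures are known to change the peptide content of granule cells, in which neuropeptide Y, enkephalin and thyrotropin-releasing hormone can appear or increase. In bulk tissue, fewer cells of a type and less RNA per cell cannot be told apart.

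Among saline libraries the members spanned a wide range of levels. Per kilobase of the canonical transcript, EZ saline means over 12 libraries ran from Npy at 74.2 ± 16.5 CPM per kb (SD) through Cck at 33.5 ± 4.41, Sst at 31.2 ± 8.43, Pdyn at 11.5 ± 2.28, Penk at 10.6 ± 1.37, Vip at 4.32 ± 1.10, Cort at 4.16 ± 2.03, Tac2 at 2.23 ± 0.518 and Tac1 at 1.76 ± 0.421 down to Trh at 0.145 ± 0.0913. Neighbours in this order whose means differ by less than the larger of their SDs are Cck and Sst, Pdyn and Penk, Vip and Cort, Cort and Tac2, and Tac2 and Tac1. Transcript ends differ between annotations, so an order this close is uncertain. In the PIZ saline libraries Npy was again first at 67.1 ± 13.0 CPM per kb and Trh last at 0.0978 ± 0.0592, Vip was at 5.78 ± 1.94, and Sst (35.1 ± 13.2) stood above Cck (33.3 ± 4.34) there. Trh was close to the limit of detection, with 0 to 8 reads in every saline library.

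Saline EZ and saline PIZ were compared over all days to set both sides against each other without kainate. No member was a DEG in edgeR, against 0.0234% of all genes tested, none had an unadjusted p under 0.05, and DESeq2 called none. The widest gap was that of Vip, with an adjusted p of 0.571 for a log2 difference of -0.41 ± 0.21 (SE). This fit has no mouse term, although both sides come from the same mice. With mouse as a replicate block, limma-voom called no member either. In single saline mice the EZ to PIZ ratio of Vip ran from 0.453 to 1.40. When EZ saline libraries of day 14 were set against those of day 3, again no member was a DEG, against 0% of all genes, with 1 unadjusted p under 0.05 and none called by DESeq2. That 1 gene was Cort, at 1.44 to 3.00 CPM on day 3 and 2.36 to 6.73 CPM on day 14.

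Promoter windows were looked up for the members because several of them moved together. RefSeq windows on GRCm38.p6 of 300 bases, 250 before and 50 after the start site, were found for 9 of 10 members, all but Penk. The letters TGACG, which make up one side of the cyclic AMP response element (CRE, TGACGTCA), were searched on both strands. They lay in the windows of Sst, Cck, Vip, Tac1, Trh and Cort and not in those of Npy, Pdyn and Tac2, and they occur in 20.81% of all 32851 windows. The whole CRE was found only in Sst, at position -48 counted from the start site, and occurs in 1.79% of windows. TGANTCA, the AP-1 motif, was in none of the 9 and is in 7.81% of all windows. The 120 bases before the start site are shown 5′ to 3′ for the 6 genes with a match, with TGACG, its reverse complement CGTCA or the CRE in capitals. A further match in Tac1, at position -197, lies outside the bases shown.
Sst (chr16:23890845-23890964, minus strand): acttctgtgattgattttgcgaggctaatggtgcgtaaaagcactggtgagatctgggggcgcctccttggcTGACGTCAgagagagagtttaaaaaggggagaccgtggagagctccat
Cck (chr9:121495695-121495814, minus strand): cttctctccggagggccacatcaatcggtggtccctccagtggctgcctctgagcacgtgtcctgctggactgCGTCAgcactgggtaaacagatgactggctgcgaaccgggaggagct
Vip (chr10:5639098-5639217, plus strand): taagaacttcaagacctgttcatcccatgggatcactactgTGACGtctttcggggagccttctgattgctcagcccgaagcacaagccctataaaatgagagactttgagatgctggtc
Tac1 (chr6:7554941-7555060, plus strand): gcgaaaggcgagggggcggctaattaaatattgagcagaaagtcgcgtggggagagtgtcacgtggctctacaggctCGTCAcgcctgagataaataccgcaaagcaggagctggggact
Trh (chr6:92244651-92244770, minus strand): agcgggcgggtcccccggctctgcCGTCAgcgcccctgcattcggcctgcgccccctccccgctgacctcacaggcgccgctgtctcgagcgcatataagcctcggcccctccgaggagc
Cort (chr4:149126764-149126883, minus strand): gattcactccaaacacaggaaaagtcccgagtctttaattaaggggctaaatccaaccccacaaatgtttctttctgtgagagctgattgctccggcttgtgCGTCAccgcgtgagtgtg
A match is a description of these letters and does not show that a factor binds there. The 5 genes downregulated in the EZ at day 3 all have TGACG in their windows, and so does Trh, which was upregulated. Tac2, also upregulated there, has no match, and Penk had no window to search. A link between these letters and the direction of change was not tested.

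**Figure D1:**
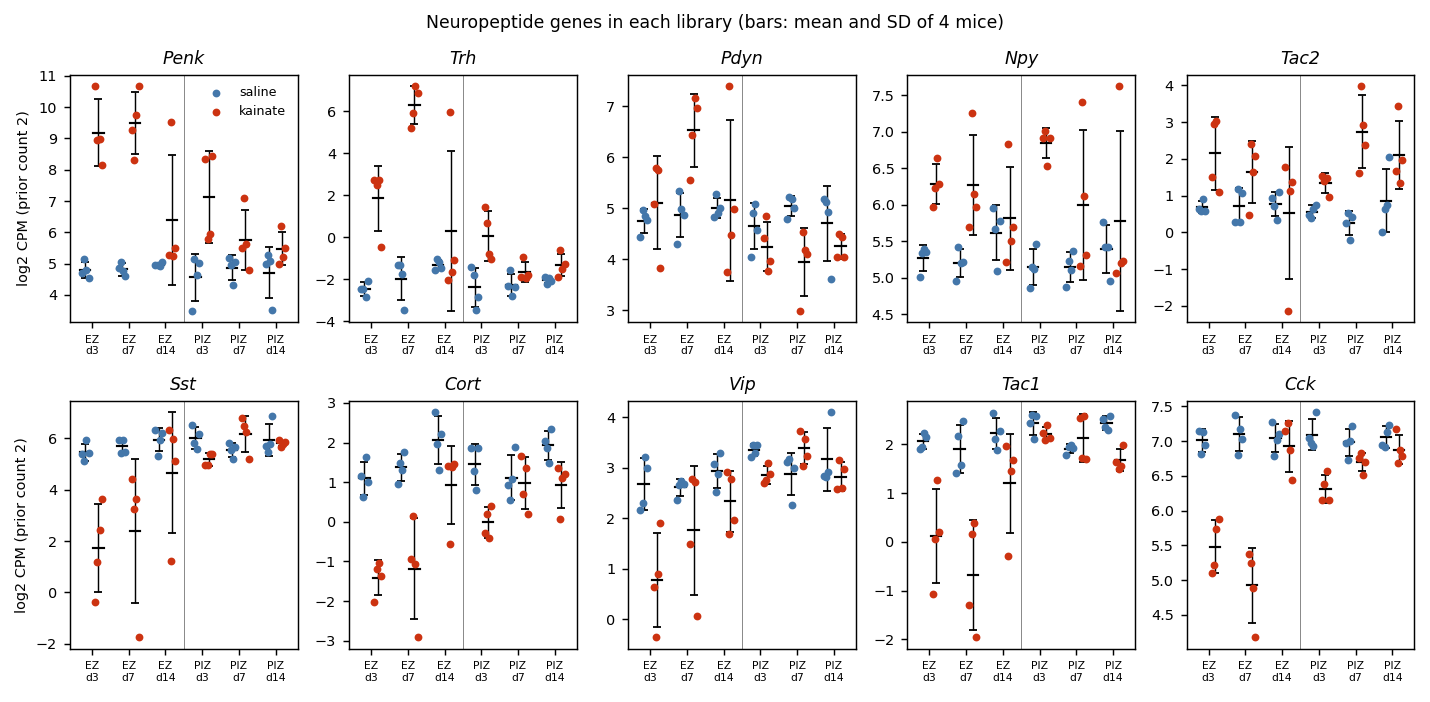
Each point is 1 library, at its log2 CPM on the vertical axis (prior count 2), for saline (blue) and kainate (red) in the EZ and the PIZ at days 3, 7 and 14 on the horizontal axis. Black bars show the mean and SD of 4 mice. EZ kainate libraries of Penk and Trh stand above saline at days 3 and 7, those of Sst, Cort, Tac1 and Cck stand below, and at day 14 single points stand far from the other 3 mice.

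The first comparison asked which of these genes kainate changed in the EZ 3 days after SE induction. Upregulated were 3 members (Penk, Trh and Tac2), where 16.1% of all genes tested were upregulated, and downregulated were 5 (Sst, Cck, Vip, Tac1 and Cort), where 8.61% of all genes were downregulated. The median log2 fold change of the 10 was -0.49 beside 0.032 over all genes tested.

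Penk encodes proenkephalin, the precursor of the enkephalins, which act on opioid receptors (GRCm39 chromosome 4, 4132722 to 4141856). The 4 saline EZ libraries of day 3 held 23.1, 25.7, 27.4 and 35.1 CPM, and the 4 kainate libraries held 282, 491.5, 504 and 1631 CPM. Every kainate library was therefore at least several times above every saline library, while the 4 kainate mice themselves lay far apart. The fitted change was 26.1-fold, or 4.71 ± 0.78 (SE) on the log2 scale, with an adjusted p of 8.89e-06.

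Trh encodes the precursor of thyrotropin-releasing hormone, a small peptide that also acts as a neuromodulator outside the hypothalamus (GRCm39 chromosome 6, 92219021 to 92221631). It was barely detected in saline EZ libraries at day 3, with 1 to 3 reads each, and kainate libraries held 15 to 178 reads, or 0.631, 5.43, 6.43 and 6.46 CPM. Pooled over the 4 libraries of each group, 503 reads stood against 8, a ratio of 52.8 per mapped read (exact 95% counting interval 26.6 to 123, which covers counting error only). The fitted log2 fold change was 5.61 ± 1.36 (adjusted p = 0.000863), and its size depends on how such low counts are smoothed. With mouse as a replicate block, in limma-voom, Trh was no longer called (adjusted p = 0.0178; 4.92e-06 to 0.0178 over 15 alternatives), and the same tool without a block gave 0.0177.

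Tac2 encodes the precursor of neurokinin B, a tachykinin (GRCm39 chromosome 10, 127560347 to 127567638). Saline libraries held 1.40, 1.41, 1.46 and 1.80 CPM, and kainate libraries 2.06, 2.755, 7.575 and 8.05 CPM. The groups did not overlap, but 2 of the 4 kainate mice stood close to saline. The log2 fold change was 1.75 ± 0.53 (adjusted p = 0.00653), and this call held in 7 of 15 alternatives, the fewest of the 8. It was lost with the replicate block in limma-voom (adjusted p = 0.0369; 0.0336 in that tool without a block; 0.00259 to 0.0382 over 15 alternatives) and without any 1 of mice 18, 29, 37, 38, 41 or 42, with log2 fold changes of 1.445 to 1.845 without them.

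Npy and Pdyn were not DEG in the EZ at day 3. Npy, the precursor of neuropeptide Y, which acts through inhibitory Y receptors (GRCm39 chromosome 6, 49799026 to 49806489), stood at 32.1, 40.4, 40.6 and 42.01 CPM in saline and at 62.5, 75.0, 77.75 and 99.4 CPM in kainate libraries. All 4 kainate libraries lay above all 4 saline libraries, and the log2 fold change of 1.02 ± 0.42 missed the threshold (adjusted p = 0.0444). Fitted on the compared groups alone, Npy was called (adjusted p = 0.00065). Pdyn, the precursor of the dynorphins, which act on kappa opioid receptors (GRCm39 chromosome 2, 129528469 to 129541945), overlapped, with saline at 21.45 to 31.3 CPM and kainate at 14.1 to 54.9 CPM (log2 fold change 0.53 ± 0.46, adjusted p = 0.364).

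Among the downregulated genes, Sst, which encodes somatostatin, the peptide of hilar interneurons that contact granule cell dendrites (GRCm39 chromosome 16, 23707321 to 23711733), had the largest fitted change. Saline libraries held 34.85, 41.4, 42.6 and 60.6 CPM and kainate libraries 0.689, 2.18, 5.37 and 12.4 CPM. The lowest saline library was thus well above the highest kainate library. Sst was 8.75-fold lower, a log2 fold change of -3.13 ± 0.66 (adjusted p = 0.00019).

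Cort encodes cortistatin, a peptide close to somatostatin that shares its receptors (GRCm39 chromosome 4, 149209491 to 149211266). It fell from 1.44, 1.90, 2.12 and 3.00 CPM in saline to 0.153, 0.295, 0.344 and 0.399 CPM in kainate libraries. The fitted change was 6.97-fold lower (log2 fold change -2.80 ± 0.50, adjusted p = 2.18e-05), without overlap between the groups.

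Cck encodes cholecystokinin, made by a class of basket cells and by many excitatory neurons (GRCm39 chromosome 9, 121315695 to 121324863). Of the 5 it had the smallest fall. Saline libraries held 112, 124, 140.9 and 141 CPM and kainate libraries 34.1, 37.2, 53.1 and 58.9 CPM, which gave a log2 fold change of -1.50 ± 0.19 (adjusted p = 1.64e-07).

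Vip and Tac1 fell by similar factors. Vip, the precursor of vasoactive intestinal peptide and a marker of interneurons that contact other interneurons (GRCm39 chromosome 10, 5589186 to 5599956), stood at 4.37, 4.86, 7.84 and 9.22 CPM in saline and at 0.689, 1.45, 1.78 and 3.66 CPM in kainate libraries (log2 fold change -1.80 ± 0.40, adjusted p = 0.000337). Tac1, the precursor of substance P and neurokinin A (GRCm39 chromosome 6, 7554120 to 7565834), stood at 3.66, 3.78, 4.34 and 4.61 CPM in saline and at 0.383, 0.9565, 1.05 and 2.32 CPM in kainate libraries (log2 fold change -1.79 ± 0.38, adjusted p = 0.000206). In both genes the highest kainate library was below the lowest saline library.

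Single kainate mice differed from each other in the same way across several members at day 3. Mouse 30 had the highest Penk and the lowest Sst, Cck, Tac1 and Cort of the 4, whereas mouse 44 had the lowest Penk, Trh, Tac2 and Pdyn and the highest Sst, Cck and Vip. With 4 mice no test of this order was made.

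At day 7 the EZ had 3 upregulated members (Penk, Trh and Pdyn), where 20.6% of all genes tested were upregulated, and 4 downregulated ones (Sst, Cck, Tac1 and Cort), where 11.9% of all genes were downregulated. The median log2 fold change of the 10 was 0.27, beside 0.011 over all genes tested. Penk stayed high, at 23.9, 26.8, 29.1 and 33.2 CPM in saline against 315, 617, 853.5 and 1646 CPM in kainate libraries, a 30.3-fold change (log2 fold change 4.92 ± 0.79, adjusted p = 2.52e-06). Per kilobase, the kainate mean of Penk, 312 ± 207 CPM per kb (SD), was then the highest of the 10 members.

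Of the members, Trh had the largest fitted fold change of kainate against saline. Saline EZ libraries of day 7 held 0 to 7 reads each, and the kainate libraries 932 to 3759 reads, or 36.5, 61.1, 118 and 147 CPM. Pooled reads were 8731 against 17, a ratio of 451 (exact 95% counting interval 281 to 774). The fitted log2 fold change was 8.75 ± 1.22 (adjusted p = 2.34e-07). The lowest kainate library at day 7 was above the highest at day 3, but the kainate effects of days 3 and 7 differed by 3.15 ± 2.74 on the log2 scale, which did not pass (adjusted p = 0.71).

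Pdyn was a DEG at day 7, at 19.7, 28.9, 31.6 and 40.3 CPM in saline and at 47.1, 86.7, 124 and 142 CPM in kainate libraries (log2 fold change 1.73 ± 0.47, adjusted p = 0.00198). Without mouse 20 it missed the threshold, at a log2 fold change of 1.57. Npy again stood higher in all 4 kainate libraries, at 51.7, 62.8, 70.9 and 154 CPM against 31.03, 36.8, 37.01 and 42.7 CPM, and again missed it (log2 fold change 1.198 ± 0.43, adjusted p = 0.0157); without mouse 21, the lowest of the 4, it was called at 1.38. Tac2 overlapped, at 1.29 to 5.15 CPM in kainate and 1.12 to 2.17 CPM in saline libraries (adjusted p = 0.0898).

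Cck at day 7 went from 112, 131, 145 and 167 CPM in saline down to 18, 29.6, 37.9 and 41.4 CPM in kainate libraries (log2 fold change -2.13 ± 0.19, adjusted p = 2.78e-09). Tac1 stood at 2.55, 2.89, 4.39 and 5.46 CPM in saline and at 0.166, 0.3135, 1.02 and 1.21 CPM in kainate libraries (-2.51 ± 0.41, adjusted p = 3.18e-06). Cort went from 1.84 to 3.30 CPM down to 0.0415 to 1.02 CPM (-2.48 ± 0.48, adjusted p = 3.52e-05). These groups did not overlap in any of the 3 genes.

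Sst at day 7 was at 43.5, 44.6, 60.8 and 62.0 CPM in saline and at 0.207, 9.33, 12.3 and 21.4 CPM in kainate libraries (log2 fold change -2.28 ± 0.63, adjusted p = 0.00217). Fitted on the compared groups alone, its adjusted p was 0.0441 (0.00109 to 0.0441 over 15 alternatives). Vip was no longer a DEG (log2 fold change -0.52 ± 0.38, adjusted p = 0.244). Mice 23 and 26 stood at 6.73 and 6.51 CPM, inside the saline range of 5.05 to 6.605 or just above it, while mice 21 and 35 stood at 2.70 and 0.954 CPM. Mouse 35 had the highest Penk and the lowest Sst, Cck, Vip, Tac1 and Cort of the 4.

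No member passed the test for a change of its EZ effect between days 3 and 7, where 0.145% of all genes did; 2 had an unadjusted p under 0.05 and DESeq2 called none. Those 2 were Cck, at -0.63 ± 0.26, and Vip, at 1.28 ± 0.55 on the log2 scale (adjusted p = 0.308 and 0.328).

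**Figure D2:**
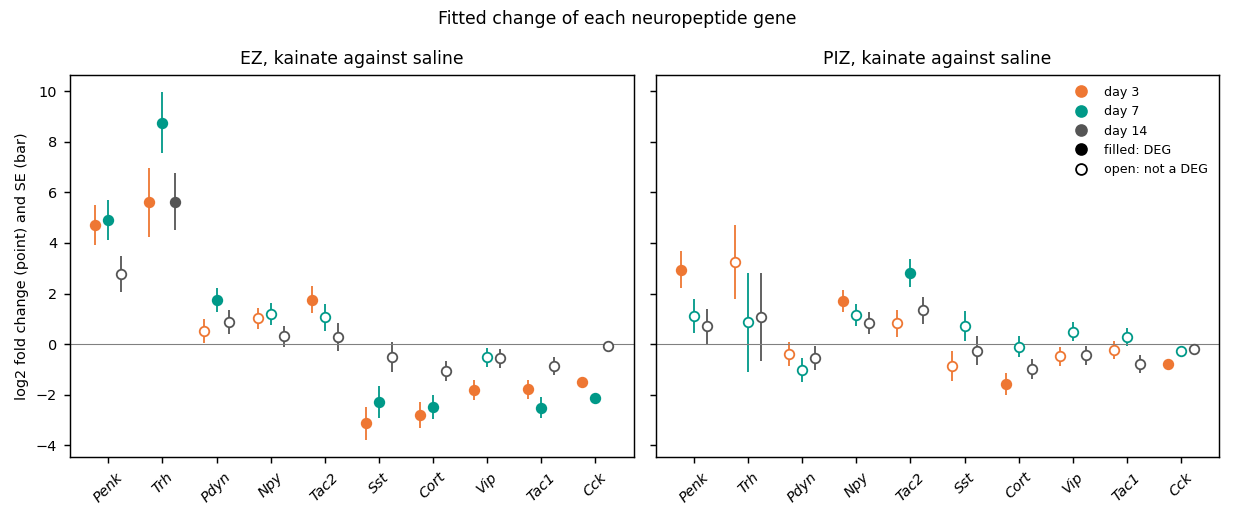
Points give the log2 fold change of kainate against saline for each gene at day 3, day 7 and day 14, in the EZ (left) and the PIZ (right), and bars its SE. Filled points are DEG. In the EZ, 8 members are filled at day 3, 7 at day 7 and 1, Trh, at day 14; in the PIZ, 4 are filled at day 3 and 1, Tac2, at day 7.

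At day 14 only Trh was a DEG in the EZ, where 2.32% of all genes tested were upregulated. That call rested on 1 mouse. Kainate libraries held 0.151, 0.225, 0.376 and 62.8 CPM and saline libraries 0.247, 0.271, 0.345 and 0.400 CPM, so that 3 kainate libraries lay around the saline values and mouse 27 supplied 1386 of the 1402 kainate reads. The log2 fold change was 5.64 ± 1.11 with mouse 27 (adjusted p = 0.00171) and -0.28 without it, and the call was also lost without saline mouse 24, 28, 31 or 39 (5.54 to 5.77). In limma-voom it was 1.73 with mouse as a replicate block (adjusted p = 0.569; 1.19e-05 to 1 over 14 alternatives).

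Mouse 27 was the highest or the lowest of the 4 kainate mice of day 14 in each of the other 9 members too. Its EZ held 732 CPM of Penk, where the other kainate mice held 38.2, 38.4 and 45.5 CPM, and 169 CPM of Pdyn, where they held 13.4, 22.2 and 31.7 CPM. Npy was at 114 CPM against 37.15 to 51.9 CPM. Sst was at 2.22 CPM against 35.05 to 81.0 CPM, Cort at 0.589 against 2.53 to 2.67 CPM, Tac1 at 0.725 against 2.64 to 3.83 CPM, Vip at 3.13 against 3.80 to 7.46 CPM, and Tac2 at 0.136 against 2.08 to 3.33 CPM. Relative to the saline mean of its day, this mouse was 4.55 higher on the log2 scale in Penk and 7.29 higher in Trh, inside the range of the 4 kainate mice of day 7 for both genes.

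Cck was the exception in that mouse, and Tac2 turned the other way. Cck in mouse 27 stood at 153 CPM, the highest of the 4 kainate libraries of day 14 and within the saline range of 110 to 154 CPM, whereas the 4 kainate mice of day 7 had been at 18 to 41.4 CPM. Tac2, at -0.24 to 1.68 relative to the saline mean in the kainate mice of day 7, was at -2.91 on the log2 scale in mouse 27, on 3 reads.

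In the other 3 kainate mice of day 14 most EZ values lay in or near the saline range. In Penk these 3 mice, 0.29 to 0.54 above the saline mean on the log2 scale, were over the saline range of 30.4 to 32.75 CPM, and in Tac2, at 2.08 to 3.33 CPM, they were over the saline range of 1.18 to 2.04 CPM. With mouse 27 counted in, Penk alone kept its groups apart. Over all 4 kainate mice the log2 fold change of Penk, 2.77 ± 0.72, missed the threshold (adjusted p = 0.0145), and DESeq2 called it (adjusted p = 0.00259), as did the fits without mouse 14, 36 or 40 (3.11 to 3.12). Without mouse 27 it was 0.38 (adjusted p = 1). Sst was at 35.05, 62.8 and 81.0 CPM in these 3 mice against 39.5 to 79.3 CPM in saline, and Cck at 86.4, 117 and 141 CPM. Pdyn was at 13.4, 22.2 and 31.7 CPM in them against 28.2 to 38.8 CPM in saline. Tac1 was at 2.64, 3.09 and 3.83 CPM against 3.59 to 6.13 CPM, and Vip at 3.80, 6.74 and 7.46 CPM against 5.595 to 9.73 CPM. These genes thus also had values below the saline range.

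**Figure D3:**
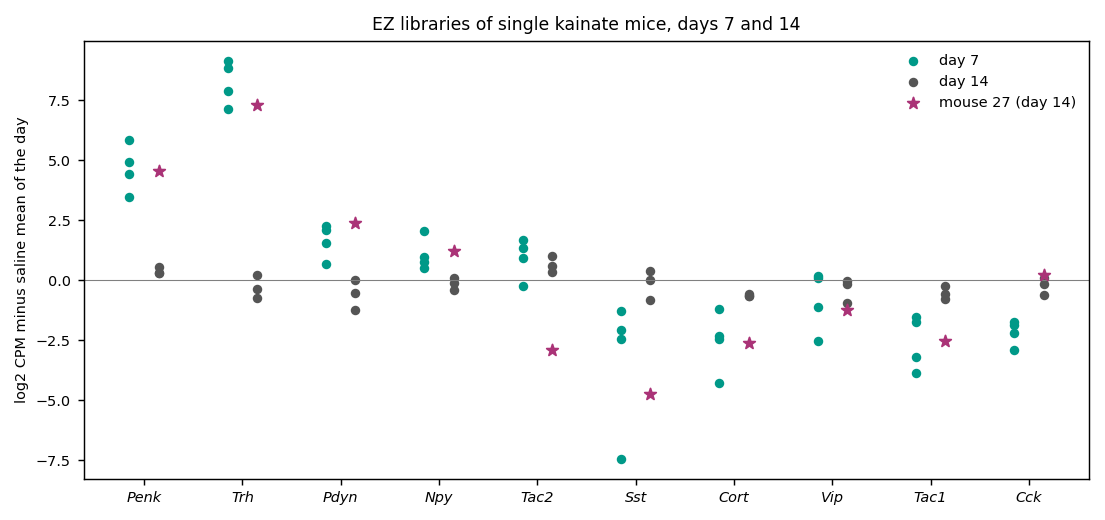
For each gene, points show single EZ kainate libraries as log2 CPM minus the saline mean of the same day, with day 7 in green, day 14 in grey and mouse 27 as a star. Mouse 27 lies within the range of the day 7 mice for Penk, Trh, Npy, Sst, Vip, Tac1 and Cort, above it for Pdyn and Cck and below it for Tac2, while the other 3 day 14 mice lie nearer to 0 than mouse 27 for every gene but Cck.

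The return of Cck towards saline between day 7 and day 14 was the only change of a kainate effect over time that passed among the members, at 2.04 ± 0.26 on the log2 scale (adjusted p = 4.69e-05), where 0.122% of all genes tested rose. It held in each fit that left out 1 mouse and missed the threshold when only the compared groups were fitted (adjusted p = 0.104; 3.34e-10 to 0.104 over 23 alternatives). Without mouse 27, 4 further members passed: Trh at -9.03, Penk at -4.54, Pdyn at -2.25 and Tac1 at 1.96 on the log2 scale.

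In the PIZ at day 3, Npy and Penk were upregulated and Cck and Cort downregulated, 2 members each way, where 7.12% of all genes tested were upregulated and 1.57% downregulated. Npy, which had missed the threshold in the EZ, rose from 28.8, 34.7, 35.3 and 43.8 CPM in saline to 92.8, 120.3, 121 and 129 CPM in kainate libraries (log2 fold change 1.70 ± 0.43, adjusted p = 0.00376). The 4 kainate mice stood close together and far above all saline libraries. The difference of its EZ and PIZ effects, -0.68 ± 0.59, did not pass (adjusted p = 0.558). Without mouse 18, 29, 37 or 44 the Npy call was lost, with log2 fold changes of 1.61 to 1.69.

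Penk in the PIZ split the kainate mice of day 3 into 2 pairs. Mice 38 and 42 held 55.2 and 61.0 CPM, and mice 30 and 44 held 328 and 345 CPM, against 11.1, 24.5, 32.1 and 35.1 CPM in saline (log2 fold change 2.94 ± 0.73, adjusted p = 0.00297). Mouse 44, the lowest of the 4 in the EZ at 282 CPM, was the highest in the PIZ, with an EZ to PIZ ratio of 0.818, while this ratio was 8.90 in mouse 38. The call was lost without mouse 18, 30, 37, 41 or 44, with log2 fold changes of 2.53 to 3.07.

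Cck fell in the PIZ at day 3 as well, from 122, 125, 132 and 171 CPM to 70.8, 71.1, 83.5 and 94.7 CPM (log2 fold change -0.78 ± 0.19, adjusted p = 0.0021), and missed the threshold without mouse 41, at -0.66. Cort stood at 1.65, 2.33, 3.53 and 3.55 CPM in saline and at 0.668, 0.737, 1.05 and 1.24 CPM in kainate libraries (-1.57 ± 0.43, adjusted p = 0.00752). The Cort call held in 5 of 15 alternatives. It was lost with the replicate block in limma-voom (adjusted p = 0.0155; 0.00208 to 0.0332 over the alternatives), with library size as the only scaling (adjusted p = 0.011), and without mouse 18, 29, 30, 38, 41, 42 or 44, at -1.74 to -1.42.

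Trh, Sst, Vip and Tac2 did not pass in the PIZ at day 3 although their groups did not overlap. The share of all genes tested whose groups did not overlap was not counted, in this or any other comparison. Trh was at 0.400, 0.477, 1.495 and 2.58 CPM in kainate and 0 to 0.279 CPM in saline libraries, a pooled 120 against 11 reads (ratio 9.99, exact 95% counting interval 5.39 to 20.6; adjusted p = 0.0994). Sst was at 30.8, 31.1, 42.2 and 42.4 CPM in kainate and 47.7 to 91.5 CPM in saline libraries (log2 fold change -0.87 ± 0.59, adjusted p = 0.302). Fitted on the compared groups alone, Sst (adjusted p = 0.0072) and Tac2 (adjusted p = 0.00979) were called.

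At day 7 the only DEG among the members in the PIZ was Tac2, where 0.15% of all genes tested were upregulated. It stood at 0.779, 1.10, 1.24 and 1.36 CPM in saline and at 2.99, 5.14, 7.52 and 15.8 CPM in kainate libraries (log2 fold change 2.80 ± 0.56, adjusted p = 0.00728). The lowest kainate library held more than the highest saline library, and mouse 23 held most. The call was lost with the replicate block in limma-voom (adjusted p = 0.0599; 0.0541 without it; 0.000106 to 0.0599 over 15 alternatives), on the compared groups alone, and without mouse 20, 23, 26, 33, 34 or 89, with a log2 fold change of 2.22 without mouse 23.

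Pdyn in the PIZ stood lower in all 4 kainate libraries of day 7, at 7.83, 17.1, 18.1 and 22.9 CPM against 27.5, 32.0, 36.1 and 36.98 CPM in saline, and did not pass (log2 fold change -1.01 ± 0.47, adjusted p = 0.313). Npy was highest in mouse 23, at 170 CPM against 35.8, 39.5 and 69.4 CPM in the other 3. Penk in that mouse was at 136 CPM, where the others held 27.7, 45.45 and 49.7 CPM. Mouse 23 thus had the highest Npy, Penk, Tac2 and Trh of the 4 in the PIZ.

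At day 14 no member was a DEG in the PIZ, where 0.014% of all genes tested were; 3 had an unadjusted p under 0.05 (Tac1, Tac2 and Cort) and DESeq2 called none. Tac1 stood at 2.72 to 3.89 CPM in kainate and 4.79 to 5.92 CPM in saline libraries, and Cort at 0.9555 to 2.49 against 2.695 to 4.99 CPM. Both were without overlap, for which no share over all genes was counted. Npy was at 198 CPM in mouse 27 and at 33.3, 36.7 and 37.4 CPM in the other 3 kainate mice. Tac2 in the same mouse was at 10.7 CPM, so that it held the highest PIZ level and the lowest EZ level of that gene among the kainate mice of day 14. Over time, no member passed for a change of its PIZ effect from day 3 to day 7, where 0.0234% of all genes did (2 unadjusted p under 0.05), or from day 7 to day 14, where 0% did (1 unadjusted p under 0.05), and DESeq2 called none in either.

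Whether the EZ and the PIZ differed was tested as the difference of their kainate effects, in the fit of group means, which has no mouse term. With mouse as a replicate block, limma-voom called the same 5 members and Sst at day 7 and none at day 3. At day 3 no member passed, where 0.0655% of all genes did; 4 had an unadjusted p under 0.05 (Sst, Cck, Vip and Tac1, all with negative differences) and DESeq2 called none. At day 7, Penk and Pdyn were further up in the EZ, where 7% of all genes were, and Cck, Tac1 and Cort further down, where 2.88% were. The difference was 3.81 ± 0.99 for Penk (adjusted p = 0.00595), 2.74 ± 0.67 for Pdyn (0.00425), -1.84 ± 0.26 for Cck (0.000467), -2.80 ± 0.54 for Tac1 (0.00185) and -2.37 ± 0.63 for Cort (0.00695), on the log2 scale.

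For Pdyn at day 7, all 4 kainate libraries lay above saline in the EZ and all 4 below saline in the PIZ. The summed level of granule cell markers, described below, was also lower in every kainate library of the PIZ at day 7. It was 715.6 to 1582 CPM in kainate and 1653 to 2046 CPM in saline libraries, and its part in the Pdyn values was not tested. Sst just missed, at -3.00 ± 0.86 (adjusted p = 0.0103), and was called by DESeq2 (adjusted p = 0.00758) and with the replicate block in limma-voom (-4.04, adjusted p = 0.00337; 0.00928 without the block). For Trh the difference of 7.89 ± 3.13 did not pass (adjusted p = 0.0551), with PIZ kainate libraries at 4 to 9 reads, and DESeq2 called it (adjusted p = 7.45e-05). For Npy the difference was 0.05 ± 0.60 (adjusted p = 0.956). Cort was not called on the compared groups alone (adjusted p = 0.0278; 0.00115 to 0.0564 over 15 alternatives). Without mouse 21 only Cck among the 5 kept its call; Penk was then at 3.81, Pdyn at 2.74, Tac1 at -2.42 and Cort at -2.07. Penk also lost its call without mouse 20, 26, 33, 34, 35 or 89 (3.04 to 3.94), Pdyn without mouse 20, 33, 34, 35 or 89 (2.64 to 2.85) and Cort without mouse 20, 26, 33, 34, 35 or 89 (-2.57 to -2.16). At day 14 no member passed, where 0% of all genes did; 2 had an unadjusted p under 0.05 (Penk and Pdyn) and DESeq2 called none.

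Exact permutation tests of single genes, 4 kainate against 4 saline libraries on the log2 CPM scale, gave p = 0.0286 for each comparison without overlap, the smallest p that 4 against 4 allows. Adjusted over the 60 tests of 10 members in 6 comparisons, this became 0.0554, so none passed 0.05 by that route.

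Cell type markers moved with these changes, and their part in the results was not tested. Of all genes tested, 16.1% were upregulated and 8.61% downregulated in the EZ at day 3, 20.6% and 11.9% in the EZ at day 7, and 7.12% and 1.57% in the PIZ at day 3. In the EZ, 13 of 18 interneuron markers were downregulated at day 3 (median log2 fold change -1.32) and 11 at day 7 (-1.67), with 1 upregulated at day 7, and their summed level was 470 to 733 CPM in kainate against 966 to 1285 CPM in saline libraries at day 3 and 456 to 761 CPM against 1044 to 1236 CPM at day 7. Slc32a1, the vesicular GABA transporter, fell in the EZ by 2.54 ± 0.56 at day 3 (adjusted p = 0.000321) and by 2.29 ± 0.55 at day 7 on the log2 scale, whereas Gad1 and Gad2, the GABA-synthesizing enzymes, were at -0.43 ± 0.18 and -0.24 ± 0.24 at day 3 and -0.48 ± 0.18 and -0.14 ± 0.24 at day 7 and were not DEG. Of 12 granule cell markers, 3 were downregulated in the EZ at day 3 and 4 at day 7, with a summed level of 821.5 to 1399 CPM in kainate and 1555 to 1937 CPM in saline libraries at day 3, which do not overlap, and 494.7 to 1548 CPM and 1353 to 2139 CPM at day 7, which do. Prox1, which defines granule cells, was at -0.12 ± 0.26 and -0.30 ± 0.26 and was not a DEG, and at no other side or day was it one. Calb1, also of granule cells, was 2.30-fold and 2.06-fold lower in the EZ at days 3 and 7 (adjusted p = 0.00378 and 0.00873) and 5.18-fold lower in the PIZ at day 3 (adjusted p = 8.67e-06). In the remaining kainate comparisons it did not pass, with log2 fold changes of -1.07 in the EZ at day 14 and -1.33 and -1.25 in the PIZ at days 7 and 14. Microglial markers were upregulated in 7 of 8 at day 3 and 8 of 8 at day 7 in the EZ and in 8 of 8 at day 3 in the PIZ, with EZ sums of 1655 to 6469 CPM in kainate and 394 to 440 CPM in saline libraries at day 7. Astrocyte markers were upregulated in 4 of 8 and downregulated in 1 at day 3 and upregulated in 6 of 8 at day 7 in the EZ, with sums at day 7 of 11580 to 13380 CPM in kainate and 4894 to 5613 CPM in saline libraries. Immediate early genes were upregulated in 11 of 16 at day 3 and 10 of 16 at day 7 in the EZ.

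Markers of the excitatory neurons next to the granule cells moved in the EZ as well. Of 7 CA3 pyramidal markers, 6 were downregulated at day 3 and 5 at day 7, and of 8 mossy cell markers 5 were downregulated at both days, with 1 and 2 upregulated. The mossy cell sum was 185 to 275 CPM in kainate and 527 to 787 CPM in saline libraries at day 3, and the CA3 sum 113 to 163 CPM and 335 to 529 CPM. Of 7 CA1 pyramidal markers, 3 were downregulated and 1 upregulated at day 3 and 5 and 1 at day 7, with sums of 104 to 203 CPM in kainate and 291.5 to 545 CPM in saline libraries at day 3. Markers of neurons in general were downregulated in 3 of 8 and upregulated in 1 at day 3 and downregulated in 5 at day 7. Their EZ sum was 2374 to 4156 CPM in kainate and 5048 to 6069 CPM in saline libraries at day 3. At day 7 it was 1615 to 4040 CPM and 5168 to 6428 CPM, so that kainate and saline libraries did not overlap at either day. Among the other cell types, 4 of 6 endothelial markers were upregulated at each of these days, and 2 and 4 of 8 oligodendrocyte markers, where 16.1% and 20.6% of all genes were. Of 10 markers of thalamus and habenula, which lie outside the dentate gyrus, 8 were tested, with 2 up and 2 down at day 3 and 2 up and 1 down at day 7, and their sum lay between 104 and 229 CPM over all libraries. The 2 not tested, Pou4f1 and Shox2, did not exceed 3 reads in any library. Calb2 in this list is also among the interneuron and mossy cell markers, and the paper reports Lef1, also in it, as upregulated in the EZ. The sum therefore does not measure tissue outside the dentate gyrus alone. Of 7 choroid plexus markers 5 were tested, with 2 up and 1 down at day 3 and 1 down at day 7, and their sum lay between 6.26 and 61.1 CPM over all libraries.

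In the PIZ at day 3 several marker sums also lay apart from saline. The sum was 914 to 1107 CPM in kainate and 1142 to 1798 CPM in saline libraries for interneurons (2 of 18 markers downregulated), 407 to 630 CPM and 690 to 1136 CPM for mossy cells (1 of 8), 139 to 302 CPM and 334 to 616 CPM for CA1 pyramidal cells (1 of 7) and 4777 to 5154 CPM and 5369 to 6765 CPM for neurons in general (1 of 8 upregulated). It was 9338 to 10120 CPM and 4265 to 5731 CPM for astrocytes (4 of 8 upregulated), and 1009 to 1243 CPM and 264 to 365 CPM for microglia. The sums of granule cells (1098 to 1387 CPM and 982 to 1900 CPM, with 2 of 12 markers downregulated) and CA3 pyramidal cells (225 to 458 CPM and 232 to 593 CPM, with 0 of 7) overlapped.

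In the EZ at day 14, 6 of 8 microglial and 3 of 8 astrocyte markers were upregulated, where 2.32% of all genes were, and no interneuron, granule cell, mossy cell, CA1 or CA3 marker was a DEG. These marker calls were lost in limma-voom, with or without mouse as a replicate block, and on the compared groups alone, where no gene was called. In mouse 27 at day 14 the markers stood apart together with the peptides. Its EZ sum was 3055 CPM for microglia, where the other 3 kainate mice had 435.5 to 664 CPM and saline mice 357 to 377.5 CPM, 12230 CPM for astrocytes (5445 to 6199 in the other 3, 5006 to 5645 in saline) and 2015 CPM for immediate early genes (618 to 733 and 533 to 782.5). The other 3 kainate mice were thus also above every saline mouse in the microglial sum. The granule cell sum was 1045 CPM in mouse 27 (1277 to 2123 in the other 3, 1687 to 2178 in saline), the CA3 sum 185 CPM (353 to 419 and 276 to 405), the CA1 sum 92.0 CPM (161 to 531 and 229 to 562.5) and the interneuron sum 766 CPM (873 to 1115 and 1132 to 1326), where all 4 kainate mice were below saline. Slc32a1 was at 2.09 CPM (23.6 to 27.1 in the others), whereas Gad1, at 336 CPM (205 to 251), and Gad2, at 205 CPM (84.1 to 123), were the highest of the 4, and Prox1, at 267 CPM (183.5 to 294), lay among them.

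Even without kainate, some members followed the summed level of granule cell markers in a library. Over the 12 PIZ saline libraries, log2 Pdyn rose with the log2 sum of the 12 granule cell markers (Pearson r = 0.98, permutation p = 1e-05, the smallest that 100000 resamples give; adjusted 0.0001 over 20 relations; Spearman rho = 0.97, p = 2e-05, adjusted 0.0004), and r was 0.91 without the 2 libraries farthest from the median. The same held in the EZ (r = 0.91, permutation p = 4e-05, adjusted 0.00027; rho = 0.87, p = 0.00039, adjusted 0.0026; r = 0.79 without 2 libraries). Sst ran the other way in the PIZ (r = -0.96, permutation p = 1e-05, adjusted 0.0001; rho = -0.95, p = 4e-05, adjusted 0.0004; r = -0.85 without 2 libraries) and not detectably in the EZ (r = -0.26, permutation p = 0.42, adjusted 0.44; rho = -0.27, p = 0.4, adjusted 0.51; r = -0.39 without 2).

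Cck fell as the granule cell sum rose in the EZ (r = -0.82, permutation p = 0.001, adjusted 0.005; rho = -0.83, p = 0.002, adjusted 0.01; r = -0.74 without 2 libraries), as did Vip in the PIZ (r = -0.72, permutation p = 0.0067, adjusted 0.027; rho = -0.77, p = 0.0048, adjusted 0.019; r = -0.67 without 2 libraries). Penk in the PIZ had r = 0.79 (permutation p = 0.013, adjusted 0.043), but rho was 0.15 (p = 0.65, adjusted 0.72) and r turned to -0.44 without 2 libraries, on which the relation rests. In all, 6 of the 20 relations passed an adjusted p of 0.05 by Pearson's r. The relation was not run for all genes, so no share over them stands beside this count. The 2 PIZ saline libraries with the lowest granule cell sums were those of mouse 39 at day 14 (861.8 CPM) and mouse 18 at day 3 (982 CPM), where the other 10 held 1518 to 2046 CPM. They had the lowest Penk (11.2 and 11.1 CPM) and Pdyn (12.2 and 16.5 CPM) and the highest Sst (117 and 91.5 CPM) of the PIZ saline libraries. With both values taken relative to their mean of the day, the relation held for Pdyn (r = 0.98, exact permutation p = 0.00029, adjusted 0.0029) and Sst (r = -0.96, exact permutation p = 7.2e-05, adjusted 0.0014) in the PIZ and for Pdyn (r = 0.92, exact permutation p = 0.00072, adjusted 0.0048) and Cck (r = -0.90, exact permutation p = 0.0027, adjusted 0.013) in the EZ. It did not pass within days for Vip (r = -0.67, exact permutation p = 0.1, adjusted 0.22) or Penk (r = 0.79, exact permutation p = 0.06, adjusted 0.16) in the PIZ. The PIZ kainate library of mouse 21 at day 7, the lowest in Pdyn, also had the lowest granule cell sum of its group, 715.6 CPM. Every kainate library of that group, at up to 1582 CPM, was below the PIZ saline libraries of day 7, at 1653 to 2046 CPM.

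**Figure D4:**
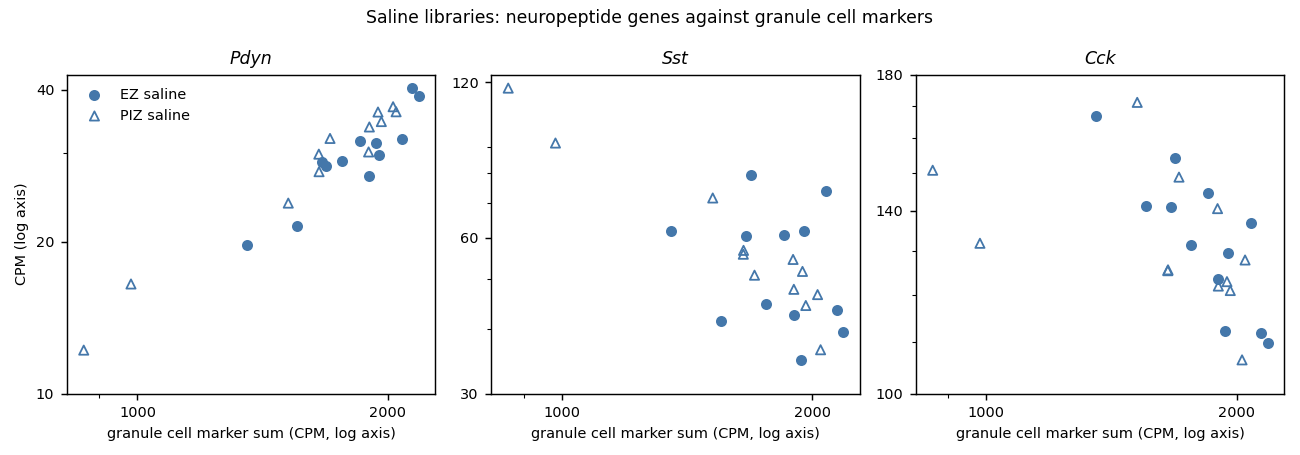
Each point is 1 saline library of the EZ (filled circles) or the PIZ (open triangles), at its summed granule cell marker level (CPM, log axis) and its level of Pdyn, Sst or Cck (CPM, log axis). Pdyn rises with the marker sum on both sides, Sst falls with it in the PIZ, and the 2 open triangles at the left are the PIZ saline libraries of mice 39 and 18.

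Across all 48 libraries, which share mice, days and treatment, each member was matched to the genes closest to it in log2 CPM, as a description. Sst was closest to Slc32a1 (r = 0.964) and BC030500 (0.96) and, among members, to Vip (0.86). Tac1 was closest to Dlx6os1 (0.93), an interneuron lineage transcript, and Gm14204 (0.914), and Cort to Neurl1b (0.904); the closest member was Sst for both, at 0.849 and 0.844. Vip was closest to Necab1 (0.897) and to Htr3a (0.896), the serotonin receptor subunit that marks a class of interneurons. Penk was closest to Nptx2 (0.958), an activity-regulated synaptic pentraxin, and Mapkapk2 (0.946), and Trh to Ptger4 (0.93) and Chrna1 (0.922), with Penk and Trh at 0.871 to each other. Cck was closest to Snrpn (0.927) and Vsnl1 (0.924), both of neurons, Npy to Ly6g6e (0.867) and Ccn4 (0.831), and Pdyn to Tex13d (0.866) and Zfp536 (0.832). Tac2 had the loosest neighbours, Cda at 0.706 and Smarcc1 at 0.686.

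Of 22 receptor genes of these peptides, 17 were tested, and at each of days 3 and 7 most were not DEG in the EZ. At day 3, 4 were upregulated and 3 downregulated (median log2 fold change -0.495), where 16.1% and 8.61% of all genes were, and at day 7, 1 was upregulated and 7 downregulated (-0.59), where 20.6% and 11.9% were. Cckbr, the brain cholecystokinin receptor, fell by 2.82 at day 3 and by 2.93 at day 7 on the log2 scale (adjusted p = 7.93e-06 and 2.46e-06), from 3.55 to 6.22 CPM in saline to 0.230 to 1.18 CPM in kainate libraries at day 3, so that it fell together with its peptide. Sstr2, a somatostatin receptor, went the opposite way to Sst at day 3, from 13.1 to 16.4 CPM up to 34.9 to 70.4 CPM (log2 fold change 1.85, adjusted p = 4.84e-06), while Sstr3 was at 0.92 and Sstr4 at -1.21.

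Npy2r, the presynaptic Y2 receptor, fell at day 7 from 56.1 to 74.0 CPM down to 1.41 to 20.4 CPM (log2 fold change -2.69, adjusted p = 7.61e-05). Sstr4 fell at day 7 by 1.76 and Vipr2, a receptor of vasoactive intestinal peptide, rose by 1.47 on the log2 scale. Trhr2, a receptor of thyrotropin-releasing hormone, was called up and Oprm1, the mu opioid receptor, down at day 3 on few reads, 6 to 33 in kainate against 0 to 3 in saline libraries for Trhr2 and 1 to 2 against 6 to 14 for Oprm1. In the PIZ, 1 receptor was upregulated at day 3, where 7.12% of all genes were.

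Genes of peptide processing and release, 18 in all and all tested, went both ways in the EZ, with 5 up and 5 down at day 3 (median log2 fold change 0.345; all genes 16.1% up and 8.61% down) and 6 up and 5 down at day 7 (0.39; all genes 20.6% and 11.9%). At day 3, Furin, a proprotein convertase, was at 1.10, Cpd, a carboxypeptidase, at 0.82 and Vgf, a secreted granule protein, at 2.12. Scg5, the chaperone of the convertase Pcsk2, was at -1.11, Cpe, the carboxypeptidase that finishes most neuropeptides, at -0.85 and Cadps, needed for dense-core vesicle release, at -0.98 (adjusted p from 4.09e-07 to 5.27e-05). At day 7, Scg3, Cpd and Pcsk6 rose by 0.89, 0.76 and 0.95, and Scg5, Cadps and Pcsk2 were at -1.08, -1.07 and -1.54.

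Of 14 peptide-degrading enzymes 13 were tested, with 4 up and 2 down in the EZ at day 3 (median log2 fold change 0.35), where 16.1% of all genes were up and 8.61% down, and 5 up and 2 down at day 7 (0.47), where 20.6% and 11.9% were. Trhde, the ectoenzyme that degrades thyrotropin-releasing hormone, fell while Trh rose, from 40.7 to 67.2 CPM in saline to 4.90 to 17.0 CPM in kainate libraries at day 3 (log2 fold change -2.51, adjusted p = 3e-05) and by 2.76 at day 7 on the log2 scale. Mme, neprilysin, which cuts enkephalins among others, was at -1.49 and -2.31. Pgpep1, an intracellular pyroglutamyl peptidase that also cuts thyrotropin-releasing hormone, rose by 1.41 and 1.93, Anpep, aminopeptidase N, by 1.61 and 2.499, and Ece1, an endothelin-converting enzyme, by 0.75 and 0.73, at days 3 and 7 on the log2 scale.

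Of 44 further peptide genes 21 were tested; in the EZ 5 were up and 1 down at day 3 (median log2 fold change -0.31) and 6 up and 2 down at day 7 (0.64), where 16.1% and 8.61% of all genes were at day 3 and 20.6% and 11.9% at day 7. Cartpt, the precursor of the CART peptides, rose at day 7 from 0.424 to 0.868 CPM in saline to 156, 217, 358 and 647 CPM in kainate libraries (log2 fold change 8.91, adjusted p = 1.67e-06), and stood at 682 CPM in mouse 27 at day 14, where the other 3 kainate mice held 0.674, 1.11 and 1.13 CPM. Gal, the precursor of galanin, was at 6.71 to 22.15 CPM in kainate libraries of day 3 against 0.132 to 0.540 CPM (log2 fold change 5.14, adjusted p = 2.26e-07), and was at 3.72 at day 7. Calca, which encodes calcitonin and calcitonin gene-related peptide, rose by 3.34 and Adm, adrenomedullin, by 2.14 at day 3, and Pthlh, parathyroid hormone-related peptide, by 3.48 at day 7, on the log2 scale, whereas Nmb, neuromedin B, fell by 1.21 at day 3 and by 0.74 at day 7, and Spx, spexin, by 1.43 at day 7.

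**Figure D5:**
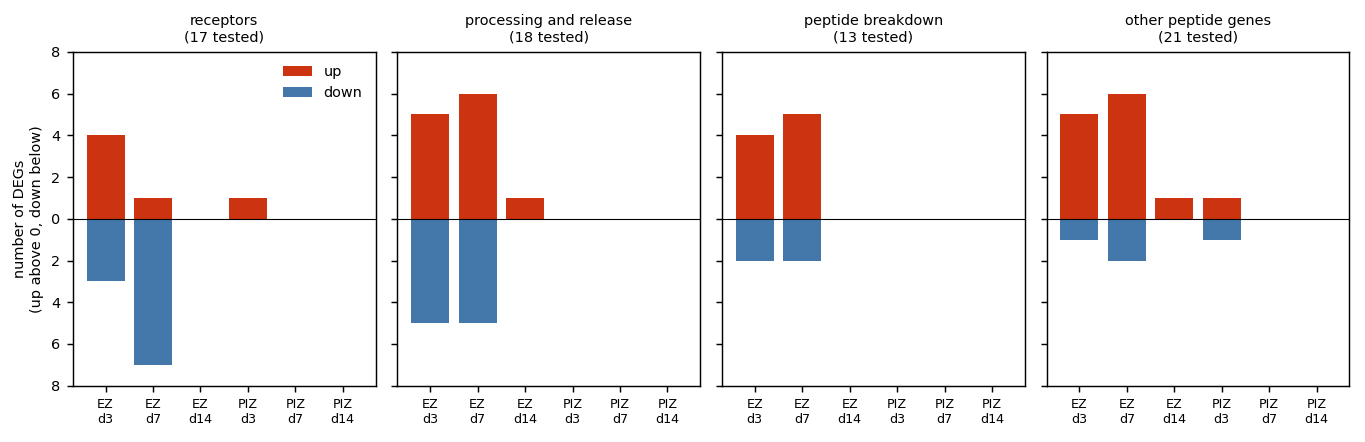
Bars show how many genes of each list were DEG in kainate against saline, upregulated above 0 and downregulated below 0, in the EZ and PIZ at days 3, 7 and 14. Nearly all calls lie in the EZ at days 3 and 7, receptors at day 7 are mostly downregulated (7 of 8), and processing genes are split nearly evenly.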

How the data were processed

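Per the authors' methods, reads of stranded polyA libraries were trimmed with fastp 0.20.1, aligned with HISAT2 2.2.1 to GRCm39 and counted with featureCounts (Subread 1.6.4) on Gencode M28 genes. Strand was used, so the opposite-strand transcripts that overlap Cck, Penk and Trh were counted apart. The deposited values are raw counts per gene and library. The pipeline's multi-mapping setting counted such reads at 1 primary place. Identifiers were matched to Gencode M39 (98.9% matched).

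The counts were analysed with edgeR 4.0.16 (R 4.3.3). After filterByExpr had removed low genes and TMM factors were set, 1 quasi-likelihood model with 12 group means was fitted to all 48 libraries. P-values were adjusted (Benjamini-Hochberg) within each comparison over 21390 genes, and SE is the log2 fold change over the square root of F. Log2 CPM of single libraries used a prior count of 2. Pearson's r of log2 CPM measured likeness. All members are named; of each related list, at EZ days 3 and 7, the top 3 DEG by p in each direction; and for each member its 2 closest genes, of which 1 is not reported here. The fit was tested on simulated data. Library totals of 17762656 to 25712975 counts (median 22108562.5) leave genes at a few reads, such as Trh in saline, imprecise. Promoter windows came from RefSeq.

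The members and lists were chosen with earlier results of these data known. The 2 libraries of a mouse come from the same animal; their residuals correlated between -0.054 and 0.376, over 0.1 in 20 of 24 pairs. Mouse therefore entered as a replicate block in an alternative (limma-voom of limma 3.58.1, consensus correlation 0.163). The closest libraries correlated at 0.9926, and none held identical counts. Alternatives were DESeq2 1.42.0, RLE or library-size scaling, no filter, the compared groups alone and each mouse left out; limma-voom without the block, and the relation to granule cell markers within days, were added after seeing the data.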

Additional observations from a re-analysis of the deposited data

Results flagged for a closer look

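Of 120 groups of 4 libraries, one for each member, region, treatment and day, 12 had a library far from the other 3. A rate of 1 in 20, which holds for independent and normally spread values, would give 6. The groups share libraries and some hold few reads, so that 6 is a rough guide only. Mouse 27 gave 6 of the 12. In its EZ at day 14, Penk was at 732 CPM, Trh at 62.8 CPM, Pdyn at 169 CPM and Cort at 0.589 CPM, and in its PIZ Npy was at 198 CPM and Tac2 at 10.7 CPM. The PIZ saline library of mouse 39 at day 14 was high in Sst, at 117 CPM, and in Vip, at 17.0 CPM, the library with the lowest granule cell marker sum among saline libraries. Mouse 30 was high in EZ Penk at day 3, at 1631 CPM, and mouse 23 in PIZ Trh at day 7, at 0.421 CPM. Among EZ saline libraries of day 3, Npy was low in mouse 18, at 32.1 CPM, and Tac2 high in mouse 37, at 1.80 CPM.

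In 6 cases an effect differed between groups by a test of the difference itself, on the log2 scale. At day 7 the kainate effect differed between EZ and PIZ by 3.81 in Penk, 2.74 in Pdyn, -1.84 in Cck, -2.80 in Tac1 and -2.37 in Cort, and the EZ effect on Cck changed by 2.04 from day 7 to day 14. No explanation was tested for any of these values.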

How the results depend on the processing

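Fitting only the compared groups gave 0 members called in the EZ at day 14, 0 in the PIZ at day 7 and 0 for the EZ change from day 7 to day 14, each 1 in the fit to all libraries. It left Trh out where too few reads remained and gave 141 of 150 values. Trh in the EZ at day 14 was among those left out, so that its call was not tested by this fit. DESeq2 called 2 members in the EZ at day 14. Limma-voom called 0 in the EZ at day 14 and 0 in the PIZ at day 7, with mouse as a replicate block and without it alike; the block changed no call that the same tool did not also change without it. RLE scaling and no filter changed no call, and library size as the only scaling lost Cort in the PIZ at day 3.

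With each mouse left out in turn, the members called ranged from 7 to 8 in the EZ at day 3, 6 to 8 at day 7 and 0 to 2 at day 14, from 1 to 3 in the PIZ at day 3 and 0 to 1 at day 7, from 1 to 5 for the EZ and PIZ difference at day 7 and from 1 to 5 for the EZ change from day 7 to day 14. Trh in the EZ at day 14 ranged from -0.279 to 6.05 on the log2 scale and turned direction without mouse 27. Of 1560 such values, 1496 kept direction and side of the threshold, 55 lost a call, 8 gained one and 1 reversed. The causes were not tested.

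Over all genes, the calls in the fit to all libraries and under other settings differed by over 1.5 times as follows. The compared groups alone gave 3847 against 6960 in the EZ at day 7, 0 against 504 at day 14, 154 against 43 in the PIZ at day 7, 0 against 14 and 1159 against 2115 for the EZ and PIZ difference at days 3 and 7, 3 against 31 and 0 against 58 for the EZ changes over time, 158 against 5 for the PIZ change from day 3 to day 7, and 160 against 5 and 18 against 0 for the saline comparisons of sides and days. DESeq2 gave 195, 7, 95, 101, 895, 28 and 23 against 43, 3, 14, 31, 58, 5 and 5 in the PIZ at days 7 and 14, the side difference at day 3, the EZ changes to day 7 and to day 14, the PIZ change to day 7 and the saline sides, and 2, 1 and 4 against 0 for the side difference at day 14, the PIZ change to day 14 and the saline days. Limma-voom gave 0 in the EZ at day 14 with and without the block, 24 and 18 in the PIZ at day 7, 41 and 7 for the side difference at day 3, and 3 and 2 for the saline sides; 36 for the EZ change to day 14 with the block and 1328 for the side difference at day 7 without it. For the EZ change to day 14, library size alone gave 95 and no filter 4, and no filter gave 1 for the saline days.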
